A study of Mus musculus with 3 samples.

Results

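The genes of the vascular endothelial growth factor (VEGF) and angiopoietin pathways were followed through the stroma of the aged mouse thymus. They comprised the ligand genes Vegfa, Vegfc, Pgf, Angpt1 and Angpt2 and the receptor genes Kdr, Flt1, Flt4, Tek and Tie1, 10 of the 32293 features in the count matrices, and were found there by gene symbol. The data were droplet single-cell RNA sequencing of CD45- thymic stroma of untreated C57BL/6 mice, aged 20 months. There were 3 libraries, each the sole library of its group (n = 1): Foxn1 lineage trace female (Foxn1Lin female), Foxn1 lineage trace male (Foxn1Lin male) and wild type male (WT male). In the lineage trace a Cre driven by Foxn1, which is active in thymic epithelium, removes a stop cassette in front of a tdTomato reporter at the Rosa26 locus. Per the labels, thymi were pooled, 10 to 15 of them, so single mice cannot be told apart, and the same protocol text names female mice for every library although 2 are labelled male. The title of the WT library calls it CD45-, while its cell type field reads CD45-PECAM1+.

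VEGF-A, the product of Vegfa, drives endothelial proliferation and permeability through the receptor VEGFR2 (Kdr). VEGFR1 (Flt1) binds VEGF-A tightly with weak signalling and also binds placental growth factor (Pgf), and VEGFR3 (Flt4) is the receptor of VEGF-C (Vegfc), known best from lymphatic vessels. Angiopoietin 1 (Angpt1) activates the receptor TIE2 (Tek) and keeps vessels quiescent, angiopoietin 2 (Angpt2) can act as its antagonist, and TIE1 (Tie1) is an orphan receptor that forms complexes with TIE2. In the thymus the vessels carry progenitors in and mature T cells out, and they lie beside pericytes, fibroblasts and epithelium.

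Called barcodes were assigned to a class by unique molecular identifiers (UMIs) of genes outside the pathway: thymic epithelial cells (TEC) with at least 2 Epcam UMIs, endothelial cells (EC) with at least 2 of Pecam1, fibroblasts (FB) with at least 2 of Pdgfra, mural cells with at least 5 of Rgs5 and Acta2 together, and mesothelial cells (MEC) with at least 2 of Upk3b. Barcodes that met 2 gates were dropped. In the order Foxn1Lin female, Foxn1Lin male and WT male, which is kept throughout, EC numbered 1879, 818 and 857, FB 1852, 864 and 1707, mural cells 426, 449 and 352, TEC 464, 426 and 867 and MEC 338, 0 and 36. The 3 libraries held 8616, 3583 and 5478 called barcodes and 53366016, 33386621 and 61258534 UMIs, and pairs of libraries shared 3 to 14 barcodes. A list of 6 EC markers summed to 5009 to 5311 counts per 1e6 UMIs (CPM) in EC and to 12.7 to 266 CPM in TEC, FB, mural cells and MEC, the highest of these in Foxn1Lin female mural cells. In EC, 1403, 1629 and 1884 CPM of the sum came from Pecam1, which is also the gate. In Foxn1Lin female 74.7% of reads lay in cells, against 90.1% and 93% in the male libraries, and levels in droplets without cells (empty droplets) are given below with the genes of each group. Intervals are 95% exact intervals and cover counting error only. UMIs were counted at the 3′ end, so a level is compared between classes and libraries for a gene and not between genes.

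The receptor genes were high in EC and low in FB, mural cells and TEC of every library. Kdr (chromosome 5, 75932827 to 75978458, minus strand, GRCm38 as for all positions) was at 761, 377 and 584 CPM in EC. It was at 12.0, 1.16 and 2.37 CPM in FB, at 40.0, 0.729 and 1.66 CPM in mural cells and at 6.91, 1.55 and 0.879 CPM in TEC. The EC values lay above those of FB, mural cells and TEC with no overlap, and MEC, described below, were between. Flt1 (chromosome 5, 147561604 to 147726011, minus strand) was at 2194, 2327 and 2536 CPM in EC, against 8.34 to 109 CPM in mural cells, FB and TEC. EC held 96.3%, 98.3% and 96.2% of the Flt1 UMIs found in the 5 classes. Flt4 (chromosome 11, 49609263 to 49652739, plus strand) was at 69.9, 32.6 and 38.2 CPM in EC and at 0.415 to 5.71 CPM in mural cells, FB and TEC. Barcodes that met only the lymphatic gate of EC, at least 2 UMIs of Prox1 and Mmrn1 together, numbered 4, 0 and 1. Another 191, 162 and 154 EC met several EC gates and are not in this count. EC as a class held 654, 248 and 285 Flt4 UMIs. Tek (chromosome 4, 94739289 to 94874976, plus strand) was at 228, 217 and 281 CPM in EC and at 52.8, 13.9 and 12.9 CPM in FB. Tie1 (chromosome 4, 118471191 to 118490061, minus strand) was at 275, 234 and 217 CPM in EC and at 0 to 19.7 CPM in mural cells, FB, TEC and MEC. For each of the 5 receptor genes the lowest EC value of any library was above the highest value of FB, mural cells and TEC.

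Like Flt4 and Tie1, the receptor genes Kdr, Flt1 and Tek were higher in EC than in FB, mural cells and TEC, as tested below. The 250 bases before the RefSeq start of Kdr, Flt1 and Tek are shown. They are on the strand of the gene (RefSeq, GRCm38.p6), Kdr from chr5:75978456-75978705, minus strand, Flt1 from chr5:147726012-147726261, minus strand and Tek from chr4:94739039-94739288, plus strand. Capitals mark the core of ETS factor motifs, GGAA, and its reverse complement TTCC.
Kdr: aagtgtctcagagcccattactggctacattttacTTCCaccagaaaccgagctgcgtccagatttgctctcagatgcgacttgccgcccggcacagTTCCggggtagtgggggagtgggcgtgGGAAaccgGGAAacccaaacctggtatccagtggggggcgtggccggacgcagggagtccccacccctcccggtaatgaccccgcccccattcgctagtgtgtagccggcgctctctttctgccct
Flt1: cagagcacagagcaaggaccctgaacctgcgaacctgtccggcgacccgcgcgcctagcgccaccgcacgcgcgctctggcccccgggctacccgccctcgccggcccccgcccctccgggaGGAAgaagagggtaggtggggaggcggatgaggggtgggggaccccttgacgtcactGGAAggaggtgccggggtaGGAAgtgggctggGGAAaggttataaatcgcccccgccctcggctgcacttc
Tek: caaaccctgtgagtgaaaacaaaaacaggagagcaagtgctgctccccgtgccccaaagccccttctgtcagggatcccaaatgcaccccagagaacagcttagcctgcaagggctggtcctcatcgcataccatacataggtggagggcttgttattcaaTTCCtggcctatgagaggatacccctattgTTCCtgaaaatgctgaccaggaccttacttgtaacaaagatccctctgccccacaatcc
The core was found 4 times before Kdr, 4 times before Flt1 and 2 times before Tek. Among 32851 promoter windows of the same length 93.4% held it, 33.4% at least 4 times and 76.8% at least 2 times, so these letters are common. Windows were found for 8 of the 10 genes, Angpt1 and Angpt2 being the others, and those of Flt4 and Tie1 held the core 2 and 7 times. Of all windows, 3.82% held it at least 7 times. The hypoxia response core, ACGTG or CACGT, was found in 16.6% of all windows. Among windows of these genes only the Vegfa one at chr17:46025164-46025413 held it, and that window lies inside the gene. The Vegfa window just before the gene, chr17:46032378-46032627, did not hold it. The GATA core, GATAA or TTATC, was found in the Vegfa window before the gene and in 22.6% of all windows.

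**Figure D1:**
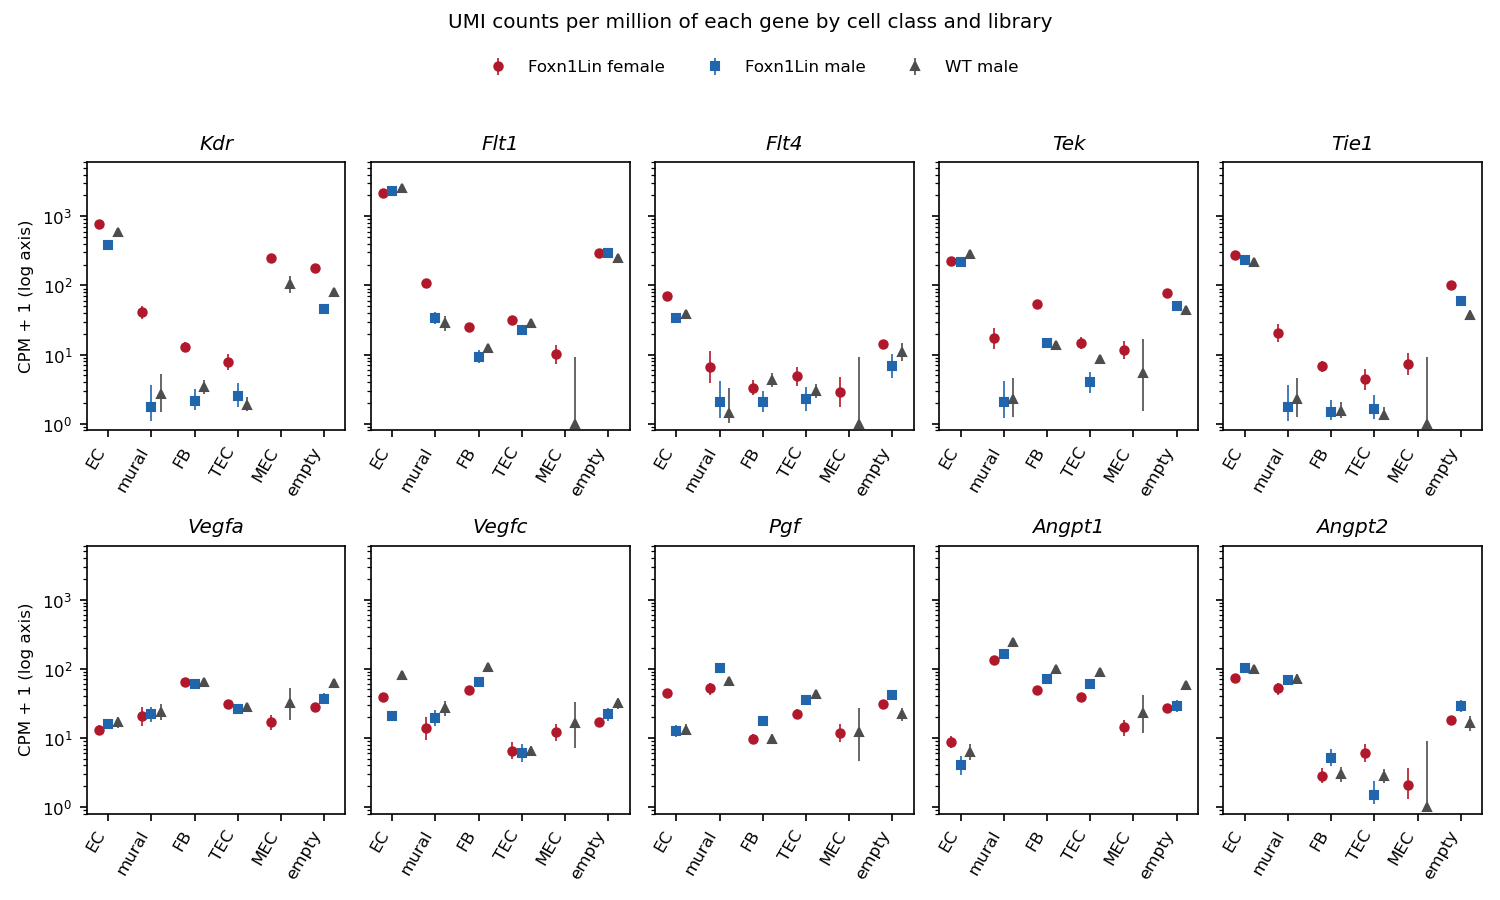
CPM plus 1 on a log axis of the 10 genes by class, with 1 symbol per library (Foxn1Lin female, Foxn1Lin male, WT male), vertical lines as 95% Poisson intervals and empty droplets at the right. The 5 receptor genes peak in EC in every library (Flt1 at 2194 to 2536 CPM), while Vegfa is highest in FB (58.4 to 64.2 CPM) and Angpt1 in mural cells (133 to 241 CPM); MEC are missing in Foxn1Lin male.

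After each barcode was thinned to 2000 UMIs, Kdr was detected in 70.6%, 41.5% and 59.6% of EC. Flt1 was detected in 92.9%, 93.2% and 91.3% of EC, Tek in 36.5%, 33.5% and 40.0%, Tie1 in 42.4%, 34.0% and 35.4% and Flt4 in 11.1%, 6.94% and 7.72%. In TEC, which are no part of the vessel wall, the thinned share was 0% to 1.33% for Kdr, 4.85% to 5.99% for Flt1 and 0% to 1.55% for Tie1. Each receptor was thus seen in a larger share of EC than of TEC in every library. Unthinned, Kdr was detected in 81.3%, 75.6% and 83.3% of EC and in 7.54%, 1.41% and 1.85% of TEC, at a median of 3856, 7380 and 6985 UMIs per EC and 10965, 12429 and 16229 per TEC. Kdr, Flt1, Flt4, Tek and Tie1 in TEC and mural cells were below their levels in the empty droplets of the same library, which were 178, 44.8 and 80.5 CPM for Kdr, 298, 293 and 247 for Flt1, 13.1, 5.90 and 9.87 for Flt4, 75.5, 49.3 and 42.7 for Tek and 99.4, 58.1 and 36.5 for Tie1. Among EC with a Kdr UMI, 45.7%, 34.7% and 40.3% also held a Tie1 UMI, against 34.4%, 33.6% and 28.2% of EC without one.

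Among the ligands, Vegfa (chromosome 17, 46016993 to 46032369, minus strand) was highest in fibroblasts of the 5 classes. It was at 63.8, 58.4 and 64.2 CPM in FB, 29.3, 24.7 and 26.6 in TEC, 19.7, 21.1 and 22.8 in mural cells and 12.0, 14.9 and 15.7 in EC. These 4 classes kept this order in every library, with FB above every other class by intervals that did not overlap. The intervals of TEC and mural cells, and those of mural cells and EC, overlapped in each library, while those of TEC and EC did not. FB held 69.5%, 60.4% and 59.3% of the Vegfa UMIs of the 5 classes, a share that also moves with the number of barcodes per class. Empty droplets were at 27.3, 36.0 and 61.9 CPM of Vegfa, in WT male close to the FB value. Barcodes that met no class gate, 33.9%, 19.6% and 18.1% of those called, were at 46.0, 50.6 and 61.8 CPM of Vegfa. Their intervals overlapped those of FB in the male libraries. Vegfc (chromosome 8, 54077606 to 54187096, plus strand) was at 48.9, 62.1 and 106 CPM in FB, 37.3, 19.8 and 79.5 in EC, 13.0, 18.6 and 25.7 in mural cells and 5.53, 4.97 and 5.49 in TEC. FB were above EC in each library, although the ranges of both classes over libraries overlapped, and TEC were lowest of these 4. Pgf (chromosome 12, 85166635 to 85177790, minus strand) was at 50.9, 101 and 64.8 CPM in mural cells, 21.2, 34.0 and 42.4 in TEC, 8.67, 16.6 and 8.74 in FB and 43.6, 11.6 and 12.2 in EC. Mural cells were highest in each library, in Foxn1Lin female with an interval that overlapped that of EC. Empty droplets were at 15.7, 20.9 and 30.4 CPM of Vegfc, above mural cells and TEC in each library, and at 30.3, 40.4 and 21.1 CPM of Pgf, above FB in each library.

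Angpt1 (chromosome 15, 42424723 to 42676977, minus strand) was at 133, 161 and 241 CPM in mural cells, 47.8, 68.8 and 98.9 in FB, 37.3, 59.5 and 87.8 in TEC and 7.70, 3.02 and 5.22 in EC. All mural values lay above all FB and TEC values, and EC lay below these 3 classes. After thinning, 17.3%, 23.9% and 29.7% of mural cells held an Angpt1 UMI, against 0.822%, 0.378% and 1.10% of EC. Angpt2 (chromosome 8, 18690263 to 18741562, minus strand) was found in both classes of the vessel wall, at 73.1, 100.2 and 97.0 CPM in EC and 50.9, 67.8 and 70.2 in mural cells. FB and TEC were at 0.466 to 5.07 CPM. In TEC of Foxn1Lin female 23 of the 33 Angpt2 UMIs lay in 1 barcode. Empty droplets were at 26.4, 28.0 and 56.8 CPM of Angpt1, above EC in each library, and at 17.2, 28.3 and 15.2 CPM of Angpt2, above FB and TEC in each library.

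To ask which classes differed beyond the spread between libraries, counts were summed per library and class and tested with edgeR's quasi-likelihood test, with the library as a block and p-values adjusted by Benjamini-Hochberg over 17594 genes. Fold changes are on the log2 scale with their SE. Against FB, 6 of the 10 genes were higher in EC, where 19.7% of all genes tested were higher, and 2 were lower, where 19.9% were. Flt1 was higher by 7.57 ± 0.51 (adjusted p = 2.21e-06), Tie1 by 7.58 ± 0.70 (1.13e-05), Kdr by 7.53 ± 0.71 (1.28e-05), Angpt2 by 5.19 ± 0.52 (1.98e-05), Flt4 by 4.39 ± 0.40 (1.01e-05) and Tek by 3.66 ± 0.50 (0.000171). Angpt1 was at -3.61 ± 0.33 (1.09e-05) and Vegfa at -2.10 ± 0.17 (5.31e-06), both lower in EC. Pgf (1.06 ± 0.52, adjusted p = 0.133) and Vegfc (-0.70 ± 0.30, 0.0826) did not pass. Each of the 10 genes kept its direction and its side of the threshold under the 14 alternatives run, among them the loss of any library. The size of the difference moved for Kdr and Tie1, to 8.15 and 8.86 without Foxn1Lin female and to 6.79 and 6.71 with no library block, and Tek was at 4.31 without Foxn1Lin female. Angpt1 ranged over -4.24 to -3.35 over the alternatives. Hematopoietic markers moved with EC: 5 of 7 were higher than in FB and 0 lower (median log2 fold change 2.41). The list summed to 132, 49.7 and 164 CPM in EC, 65.4, 9.85 and 13.1 in FB, 84.1, 11.3 and 30.3 in mural cells and 657, 395 and 375 in TEC, and its member Ptprc was at 29.2, 17.2 and 63.9 CPM in EC. In TEC, 421, 280 and 235 CPM of the sum came from Cd52 alone. The calls of the 10 genes against FB were the same without barcodes that held a Ptprc UMI. The median over the 10 genes was 4.02, against 0.04 over all genes.

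Against mural cells, 6 of 10 genes were higher in EC (18.4% of all genes) and 3 lower (18.8%). The 5 receptor genes differed by 4.51 ± 0.48 (Flt4, adjusted p = 3.35e-05) to 6.47 ± 0.71 (Kdr, 4.02e-05), and Angpt1 was lower in EC at -4.92 ± 0.35 (3.65e-06). Angpt2 did not pass (0.57 ± 0.43, adjusted p = 0.333). Vegfc (1.19 ± 0.33, 0.0148), Pgf (-1.63 ± 0.53, 0.0315) and Vegfa (-0.53 ± 0.18, 0.0358) passed, the first higher and the others lower in EC. The receptor calls held under the 14 alternatives, but their size did not: without Foxn1Lin female Kdr was at 8.70, Tie1 at 7.89, Tek at 7.76, Flt1 at 6.38 and Flt4 at 5.54, and the lowest values were 5.49 for Kdr and 5.25 for Tie1, both with no library block. Vegfc lost the call without Foxn1Lin female (0.0733), WT male (0.160) or with only the compared classes in the fit (0.0552). Pgf lost it without Foxn1Lin male (0.228), WT male (0.238) or with only the compared classes (0.0592), and its fold change ranged over -2.72 to -1.06 over the alternatives. Vegfa lost it under 9 of 14 alternatives (adjusted p = 0.0657 to 0.148), among them the loss of any library, of the library block and of barcodes with a Ptprc UMI. Angpt2 passed with only the compared classes (0.0143). Angpt1 ranged over -5.55 to -4.68 over the alternatives. Of the 7 hematopoietic markers 6 were higher in EC than in mural cells and 0 lower, and their part in these values beyond that Ptprc filter was not tested. Against TEC, 7 of 10 genes were higher in EC (24.9% of all genes) and 2 lower (31.4%). Vegfc joined the receptors and Angpt2 here at 3.35 ± 0.34 (adjusted p = 1.48e-05), while Angpt1 was at -3.05 ± 0.33 (2.05e-05) and Vegfa at -0.56 ± 0.17 (0.0140). Vegfa lost this call without Foxn1Lin male (0.0537), WT male (0.0626) or with only the compared classes (0.0710). Over the alternatives Kdr ranged over 7.96 to 9.16 and Tie1 over 7.90 to 9.32, with 9.32 for Tie1 without Foxn1Lin female and 7.90 without WT male. Angpt1 ranged over -3.87 to -2.73. Pgf did not pass (-0.20 ± 0.51, 0.761), and without Foxn1Lin female it was at -1.41 and passed (0.00347).

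**Figure D2:**
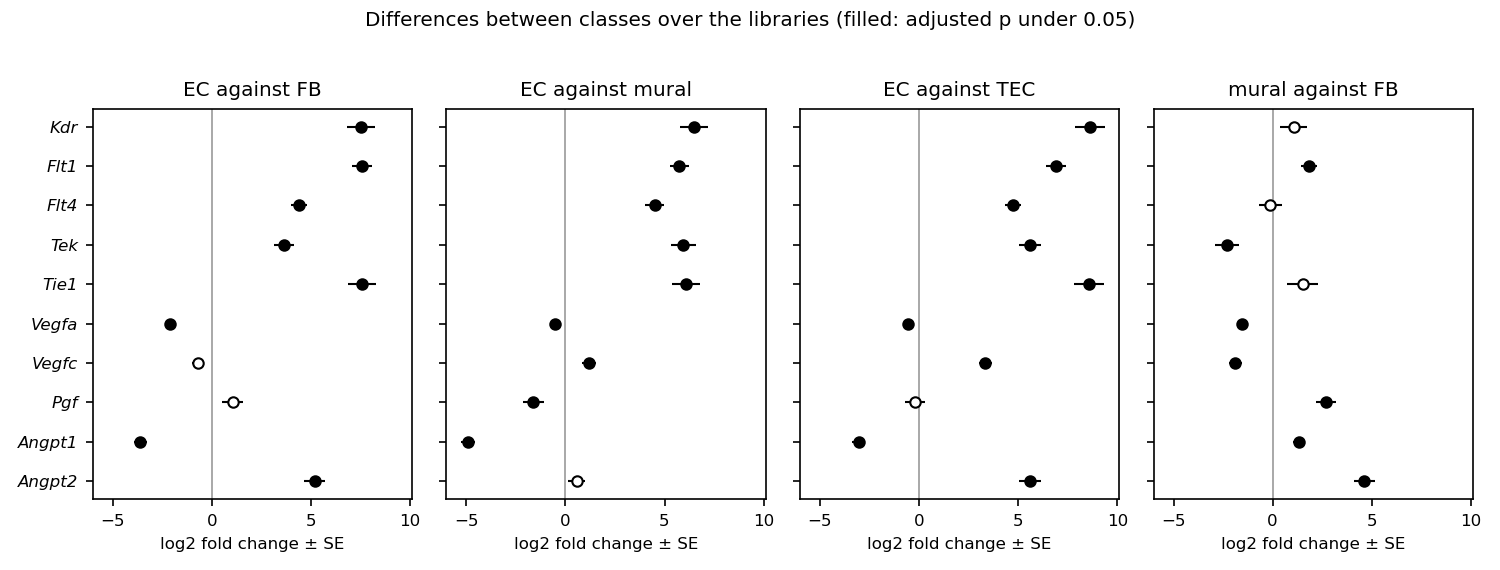
Log2 fold change with its SE (horizontal lines) of each gene in 4 comparisons between classes over the libraries; filled symbols passed an adjusted p of 0.05. The receptor genes sit at 3.66 to 8.61 in the comparisons of EC with FB, mural cells and TEC, Angpt1 at -4.92 to -3.05, and in mural cells against FB Angpt2 (4.62), Pgf (2.69) and Angpt1 (1.31) are higher.

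Between mural cells and FB, 4 of 10 genes were higher in mural cells (14.3% of all genes) and 3 lower (14.1%). Angpt2 was higher by 4.62 ± 0.52 (adjusted p = 9.14e-05), Pgf by 2.69 ± 0.53 (0.00322), Flt1 by 1.83 ± 0.41 (0.00721) and Angpt1 by 1.31 ± 0.29 (0.00604). Vegfa (-1.57 ± 0.17, 7.95e-05), Vegfc (-1.89 ± 0.33, 0.00145) and Tek (-2.29 ± 0.61, 0.0164) were lower. Without WT male 4 of the 10 genes were called, and Pgf (0.0664), Angpt1 (0.0994) and Tek (0.108) were lost. Without Foxn1Lin male Flt1 (0.0711) and Tek (0.0884) were lost, and with no library block Tek was (0.0848). Without Foxn1Lin female Tek was at -3.45. Between TEC and FB, 0 of 10 genes were higher in TEC (30.1% of all genes) and 3 lower (24.9%). Those were Vegfc at -4.05 ± 0.35 (adjusted p = 4.74e-06), Vegfa at -1.54 ± 0.16 (1.83e-05) and Tek at -1.93 ± 0.50 (0.00688). Pgf was at 1.27 ± 0.51 and missed the threshold (0.0537), and it passed under 8 of 14 alternatives, DESeq2 among them (0.0242). Without Foxn1Lin female 6 of the 10 genes were called, among them Pgf at 1.49 (0.00256) and Flt1 at 1.13 (0.00117), both higher in TEC. Angpt1 (-0.56 ± 0.28, 0.116) and Angpt2 (-0.42 ± 0.57, 0.561) did not pass, but passed as lower in TEC under 4 of 14 alternatives (adjusted p = 0.0105 to 0.0462) and under 2 of 14 alternatives (adjusted p = 0.00867 to 0.0381), and Flt1 also passed with no TMM (0.0497). Of the 7 hematopoietic markers 4 were higher in TEC than in FB and 0 lower.

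When each ligand was paired with its receptor, the class with the highest ligand level differed from that of the receptor, except for Angpt2. Vegfa was highest in FB, and its receptors Kdr and Flt1 in EC. In MEC of WT male Vegfa was at 30.8 CPM from 14 UMIs. Pgf was highest in mural cells, while its receptor Flt1 was at 27.4 to 109 CPM there and at 2194 to 2536 CPM in EC. Vegfc was highest in FB, with EC next, and Flt4 was highest in EC. Angpt1 was highest in mural cells and Tek in EC. Angpt2 had its highest CPM in EC, as had its receptor gene Tek, but in the fit of all classes EC and mural cells did not differ in Angpt2 past the threshold. A thinned Angpt2 UMI was found in 10.5%, 11.7% and 14.0% of mural cells and in 9.67%, 9.08% and 10.7% of EC. Mural cells had the higher share in each library, with overlapping intervals. After thinning, 28.8%, 16.7% and 21.8% of EC with an Angpt2 UMI held a Tek UMI, against 37.3%, 35.2% and 42.1% of EC without one, a lower share in each library. These pairs describe messages in dissociated cells and hold no measure of protein, distance or signalling.

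Within EC, the genes differed between vessel types. EC were gated without any of the 10 genes as arterial (at least 2 UMIs of Gja4, Gja5, Bmx and Sema3g together), venous (at least 2 of Ackr1 and Selp) or capillary (at least 2 of Gpihbp1), and barcodes meeting several gates were left out. Arterial-gated EC numbered 31, 29 and 81, capillary-gated EC 1234, 343 and 264 and venous-gated EC 55, 214 and 209. Vegfc was at 379, 194 and 501 CPM in arterial-gated EC, 15.8, 6.45 and 13.5 in capillary-gated EC and 17.1, 10.3 and 13.8 in venous-gated EC. The arterial values stood above all others. After thinning, a Vegfc UMI was found in 44.8% (26.4 to 64.3), 34.5% (17.9 to 54.3) and 40.5% (29.6 to 52.1) of arterial-gated EC. Angpt2 had 0, 0 and 2 UMIs in arterial-gated EC and was at 71.7, 26.5 and 59.2 CPM in capillary-gated and 207, 234 and 216 CPM in venous-gated EC. All venous values lay above all capillary values, and 35 of the 97 venous UMIs of Foxn1Lin female came from 1 barcode. Kdr was at 182, 61.7 and 309.8 CPM in arterial-gated, 921, 564 and 966 in capillary-gated and 222, 187 and 291 in venous-gated EC, and the capillary values did not overlap the others. Tek was at 386, 446 and 476 CPM in arterial-gated, 232, 248 and 311 in capillary-gated and 135, 151 and 161 in venous-gated EC, in this order in each library.

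**Figure D3:**
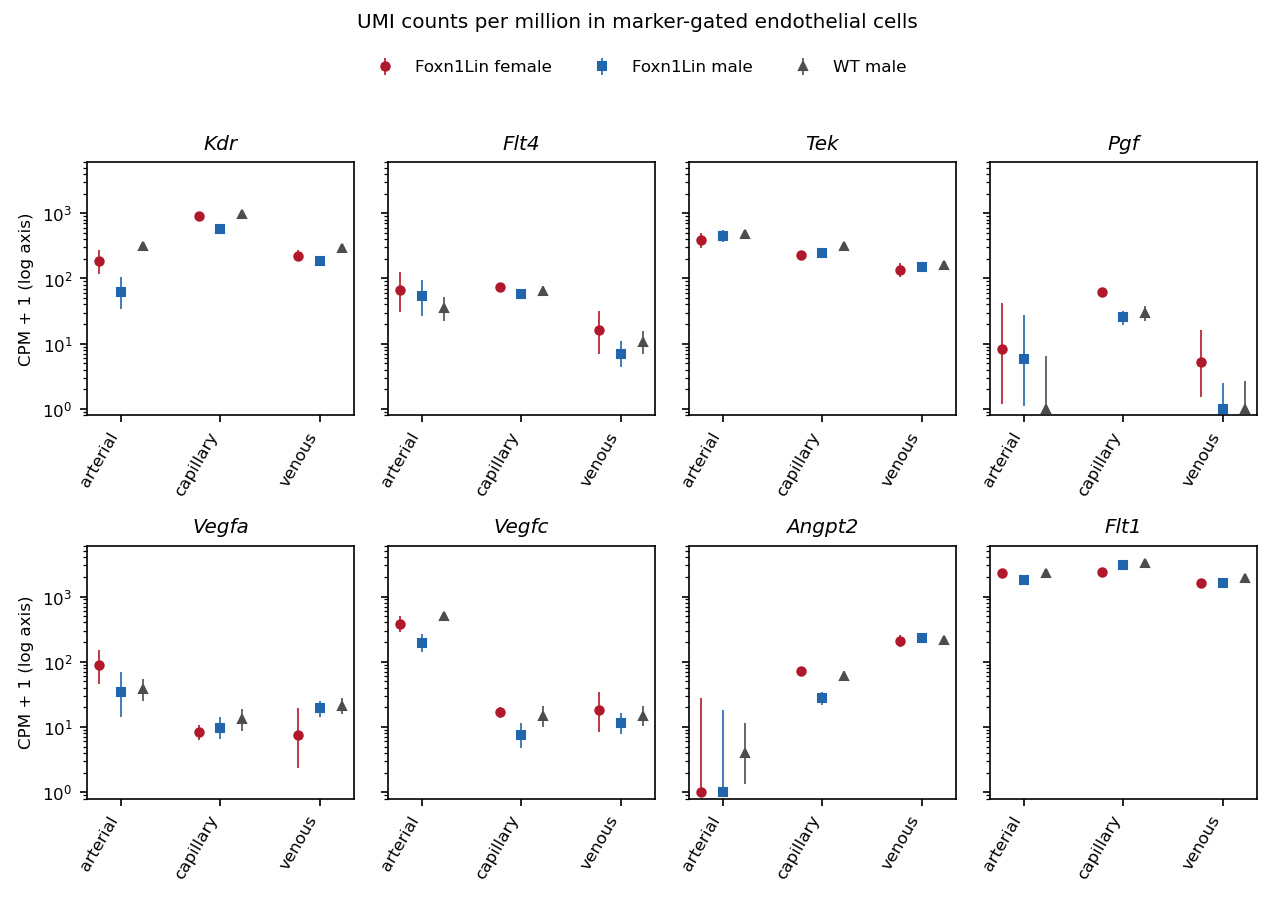
CPM plus 1 on a log axis in arterial-gated, capillary-gated and venous-gated EC, 1 symbol per library with 95% Poisson intervals; a value at 1 is a count of 0. Vegfc is high in arterial-gated EC (194 to 501 CPM), Kdr in capillary-gated EC (564 to 966 CPM) and Angpt2 in venous-gated EC (207 to 234 CPM).

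In the test over 10717 genes, arterial-gated against capillary-gated EC called 3 of 10 genes higher (6.18% of all genes) and 3 lower (5.64%). Vegfc was higher by 4.88 ± 0.22 (adjusted p = 2.03e-09), Vegfa by 2.24 ± 0.43 (0.00225) and Tek by 0.72 ± 0.16 (0.00528). Kdr (-2.18 ± 0.25, 2.40e-05), Angpt2 (-4.70 ± 0.73, 0.000389) and Pgf (-3.94 ± 0.76, 0.00231) were lower. Angpt2 and Pgf had counts of 0 to 2 in arterial-gated EC, so they passed the count filter through capillary-gated EC and their fitted fold changes depend on how a count of 0 is treated. Over the alternatives these ranged over -9.50 to -4.21 for Angpt2 and -4.65 to -2.57 for Pgf. Vegfa there rested on 12, 7 and 25 UMIs, at 87.4, 33.2 and 36.7 CPM against 7.40, 8.72 and 12.0 CPM in capillary-gated EC. Pgf lost the call without WT male (0.0553), and Tek without Foxn1Lin male (0.0607) or the library block (0.0926). Flt1 did not pass (-0.43 ± 0.15, 0.0909), but passed with no filter on low counts (0.00722).

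Venous-gated against capillary-gated EC called 2 of 10 genes higher (16.4% of all genes) and 6 lower (12.7%). Angpt2 was higher by 2.38 ± 0.24 (adjusted p = 1.85e-06) and Vegfa by 1.11 ± 0.37 (0.0314). Flt4 (-2.58 ± 0.25, 1.02e-06), Kdr (-1.56 ± 0.22, 4.81e-05), Tek (-0.60 ± 0.15, 0.00659), Flt1 (-0.53 ± 0.15, 0.0159) and Tie1 (-0.45 ± 0.16, 0.0390) were lower. Pgf, the remaining gene counted as lower, had 2, 0 and 0 UMIs in venous-gated EC and passed the count filter through capillary-gated EC, so its fitted value depends on how a count of 0 is treated (-8.37 to -5.09 over the alternatives). Without the library block 4 of the 10 genes were called, and Vegfa (0.0883), Tek (0.104), Flt1 (0.195) and Tie1 (0.206) were lost. Without Foxn1Lin male 5 were called, with Vegfa (0.207), Flt1 (0.246) and Tie1 (0.140) lost, and without WT male 5, with Vegfa (0.195), Tek (0.0530) and Tie1 (0.107) lost. In all, Vegfa was lost under 6 of 14 alternatives (adjusted p = 0.0616 to 0.207), DESeq2 (0.124) among them, Tie1 under 7 of 14 alternatives (adjusted p = 0.0778 to 0.206) and Tek under 3 of 14 alternatives (adjusted p = 0.0512 to 0.104). Angpt1 did not pass (1.45 ± 0.72, 0.152), but passed without the 5% of barcodes with the most UMIs (0.0212). Flt4 was at 71.9, 56.5 and 64.2 CPM in capillary-gated EC and at 15.0, 5.96 and 9.63 in venous-gated EC, with no overlap. Pgf was at 61.5, 24.3 and 28.6 CPM in capillary-gated EC, with 1, 1 and 0 UMIs in arterial-gated EC. It was uneven among barcodes: the 374, 64 and 57 UMIs of capillary-gated EC lay in 90, 9 and 8 barcodes, and a single barcode held 32, 30 and 16 of them.

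Among mural cells, gates of at least 2 UMIs for pericytes (Kcnj8, Abcc9 and Vtn) and for smooth muscle (Myh11 and Cnn1) held 107, 55 and 42 and 240, 270 and 210 barcodes. Pgf was at 79.3, 119.9 and 81.3 CPM in smooth muscle-gated cells and at 2.28, 31.9 and 0 CPM in pericyte-gated cells, and the groups did not overlap. Angpt1 was at 118, 164 and 209 CPM in smooth muscle-gated and 169, 98.8 and 195 CPM in pericyte-gated cells, which overlapped. Of the 10 genes 6 could be tested, over 8037 genes in all; 2 were higher in pericyte-gated cells (9.79% of all genes) and 1 lower (10.7%), while Kdr, Flt4, Tek and Tie1 were below the count filter. Pgf, the gene counted as lower in pericyte-gated cells, was at -3.31 ± 0.56 (adjusted p = 0.00283). It passed the count filter through smooth muscle-gated cells, so its fitted value depends on how counts at or near 0 are treated. Over the alternatives this value ranged over -5.84 to -2.74. Vegfc (2.17 ± 0.45, 0.00787) and Flt1 (2.05 ± 0.43, 0.00834) were higher in pericyte-gated cells. Angpt2 (-0.72 ± 0.27, 0.0946), Angpt1 (-0.26 ± 0.26, 0.551) and Vegfa (0.91 ± 0.49, 0.245) did not pass. Vegfa passed as higher without Foxn1Lin female (0.0129), and Angpt2 as lower with class gates 1 UMI lower (0.0262) or without the 5% of barcodes with the most UMIs (0.0264). Flt1 was at 157, 15.9 and 30.3 CPM in pericyte-gated cells and at 21.9, 9.60 and 4.90 in smooth muscle-gated cells, and lost the call without Foxn1Lin female (0.104) or the library block (0.0568). In the 32 mural barcodes of that library that met neither gate Flt1 was at 572 CPM and Kdr at 223 CPM. The 6 EC markers summed to 1032 CPM in these 32 barcodes, against 266, 43.0 and 29.5 CPM in mural cells as a class, and their part in these values was not tested. FB markers also differed between the gates: of 7 listed, 6 were tested and 5 were higher in pericyte-gated cells and 0 lower, with a median log2 fold change of 2.61 against -0.02 over all genes. They summed to 1294, 2952 and 2654 CPM in pericyte-gated and 530.4, 219 and 245 CPM in smooth muscle-gated cells, and none of the 7 was at 0. The 6 EC markers summed to 369, 86.1 and 108 and 107, 30.6 and 8.41 CPM, with 0, 1 and 1 of them at 0 in pericyte-gated and 0, 0 and 0 in smooth muscle-gated cells. The part of either list in the differences of Vegfc, Flt1 and Pgf was not tested, and among the classes Vegfc was highest in FB. Vegfc lost the call without WT male (0.0556), and Pgf, with 0 UMIs in pericyte-gated cells of WT male, was at -5.84 without Foxn1Lin male.

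Among FB, Vegfa was at 67.5, 95.4 and 122 CPM in Smoc2-gated barcodes (Smoc2 and Dpep1; 532, 95 and 200 barcodes) and at 50.1, 38.2 and 50.7 in Ptn-gated barcodes (206, 318 and 589). The Smoc2-gated value was the higher of both in each library. Pi16-gated barcodes (Pi16 and Dpp4; 30, 2 and 9) were at 95.8, 153 and 131 CPM from 17, 2 and 12 UMIs, above the Smoc2-gated value with overlapping intervals in each library, and FB that met none of these gates at 165, 70.1 and 141 CPM. Tek, low in FB as a class, was at 259 CPM in the 30 Pi16-gated barcodes of Foxn1Lin female, from 46 UMIs in 17 barcodes. In the 9 of WT male it was at 131 CPM, from 12 UMIs in 4 barcodes, and Foxn1Lin male had 2 such barcodes and 0 Tek UMIs. Ptn-gated FB were at 4.93, 2.53 and 1.83 CPM of Tek and Smoc2-gated FB at 25.7, 20.0 and 10.6. Several of these gates were met by 52.9%, 48.1% and 46.6% of FB, which are not in these values, and no test was run between FB gates. There were 2.18, 1.67 and 1.13 Tek UMIs per Flt1 UMI in FB, against 0.104, 0.0931 and 0.111 in EC and 0.253, 0.168 and 0.173 in empty droplets.

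Among TEC, Angpt1 was at 67.3, 99.7 and 167 CPM in Itgb4-gated barcodes (at least 3 of Itgb4 and Itga6) and at 10.2, 6.98 and 3.19 CPM in Aire-gated barcodes (at least 2 of Aire and Fezf2), which did not overlap. Pgf was at 54.5, 34.1 and 53.3 CPM in Itgb4-gated, 54.7, 73.9 and 41.3 in Cldn3-gated (at least 3 of Cldn3 and Plet1) and 4.07, 6.98 and 0 in Aire-gated barcodes. In Cldn3-gated TEC of WT male 77 of 87 Flt1 UMIs lay in 1 barcode. The gates held 34, 92 and 177 Itgb4-gated, 29, 31 and 45 Cldn3-gated and 42, 31 and 32 Aire-gated barcodes, while 31, 16 and 23 barcodes were cortical-gated (at least 3 of Prss16, Psmb11 and Ly75). In these Angpt1 was at 105, 20.4 and 83.5 CPM and Pgf at 2.75, 158 and 15.9 CPM, the highest Pgf value of the 4 gates in Foxn1Lin male and the highest Angpt1 value in Foxn1Lin female. Several gates were met by 48.7%, 35.7% and 55.0% of TEC, which are not in these values, and no test was run between TEC gates.

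**Figure D4:**
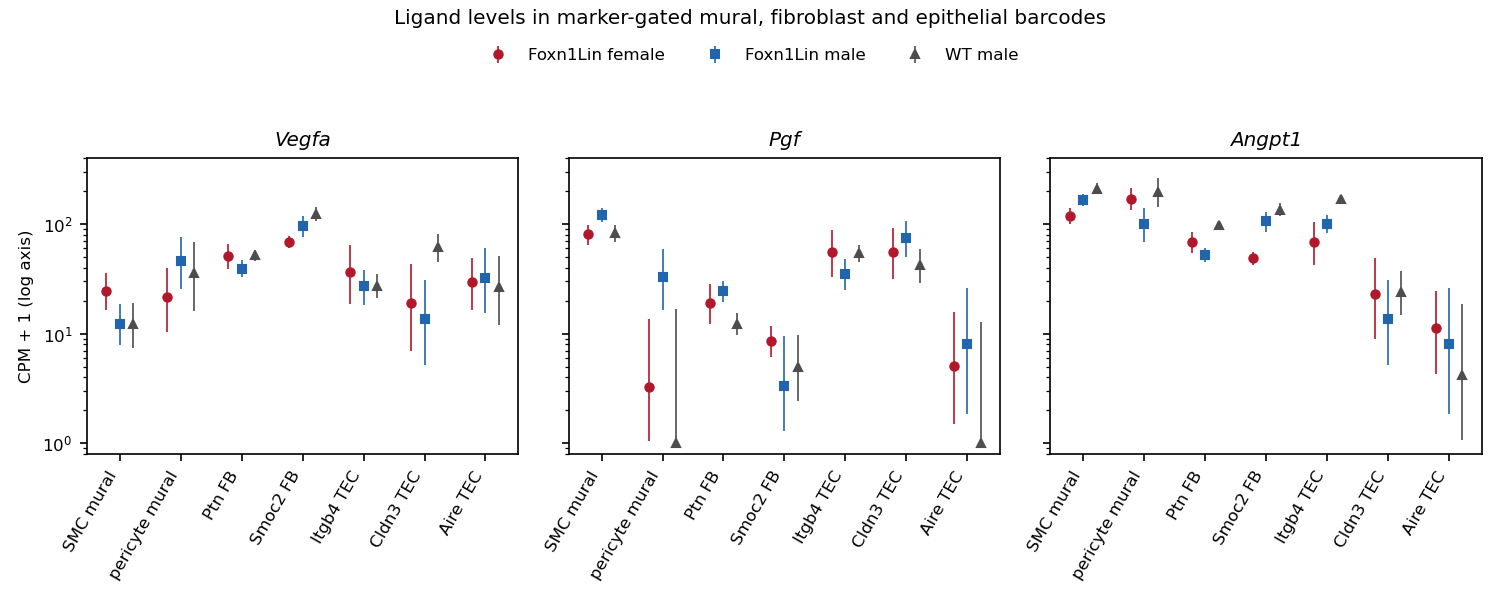
CPM plus 1 on a log axis of ligand genes in marker-gated mural cells (SMC, smooth muscle-gated), FB and TEC, 1 symbol per library with 95% Poisson intervals; a value at 1 is a count of 0. Pgf is at 79.3 to 119.9 CPM in smooth muscle-gated and 0 to 31.9 CPM in pericyte-gated cells, and Vegfa at 67.5 to 122 CPM in Smoc2-gated FB.

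Outside EC, Kdr stood out in MEC. It was at 252 CPM (interval 236 to 268) in MEC of Foxn1Lin female and at 103 CPM (76.0 to 138) in MEC of WT male, from 959 and 47 UMIs. Both values were above those of FB, TEC and mural cells and below those of EC in the same library. The UMIs lay in 223 and 18 of 338 and 36 barcodes, with at most 27 and 10 in 1 of them. After thinning, a Kdr UMI was found in 29.4% (24.5 to 34.6) and 11.1% (3.11 to 26.1) of MEC. Endothelial messages were low in the same barcodes: Flt1 was at 9.18 and 0 CPM, where the interval of 0 UMIs reached 8.12 CPM, Tie1 at 6.29 and 0 CPM and Cdh5 at 9.18 and 4.40 CPM. There were 27.4 Kdr UMIs per Flt1 UMI in MEC of Foxn1Lin female, against 0.347 in its EC and 0.596 in its empty droplets. The mesothelial markers Upk3b, which is also the gate, and Wt1 were at 1813 and 1369 CPM and 634 and 1048 CPM. MEC against FB called 1 of 10 genes higher (9.79% of all genes) and 3 lower (11.7%). Kdr was higher by 4.86 ± 0.70 (adjusted p = 0.000598), and Vegfa (-1.71 ± 0.22, 0.000331), Vegfc (-2.54 ± 0.43, 0.00172) and Angpt1 (-2.17 ± 0.41, 0.00328) were lower. Kdr passed under all 14 alternatives, with adjusted p up to 0.0371, and Angpt1 lost its call without WT male (0.101). MEC came from 2 libraries, so without either of them 1 MEC sum was left, which these fits assume to vary like the sums of the other classes. Flt1 (-1.39 ± 0.61, 0.137) and Tek (-1.99 ± 0.74, 0.0792) did not pass, but passed as lower in MEC under 2 of 14 alternatives (adjusted p = 0.00402 to 0.0294) and 2 of 14 alternatives (adjusted p = 5.24e-06 to 0.0368).

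**Figure D5:**
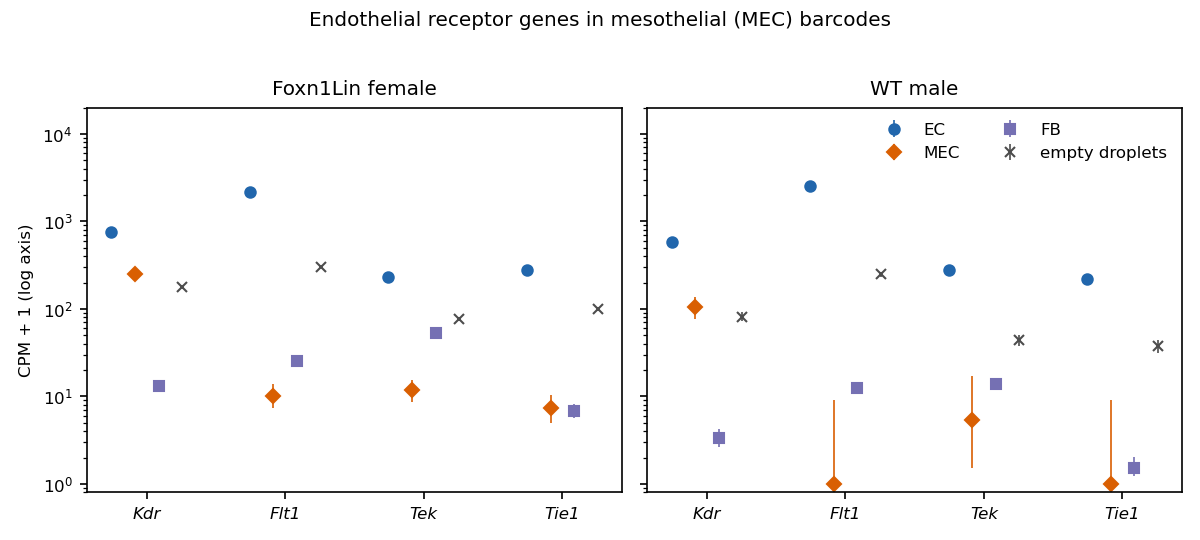
CPM plus 1 on a log axis of endothelial receptor genes in EC, MEC, FB and empty droplets of the 2 libraries with MEC, with 95% Poisson intervals; a value at 1 is a count of 0. In MEC, Kdr (252 and 103 CPM) stands above FB and, with overlapping intervals in WT male, above empty droplets, while Flt1, Tek and Tie1 lie below empty droplets.

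Between libraries there was no replicate and no test. A gene was counted where its CPM differed at least 2-fold with at least 20 UMIs over both libraries. Of Foxn1Lin female over Foxn1Lin male in EC, 4 genes passed with counting intervals apart, where 18.1% of all genes lay past 2-fold in either direction: Pgf (log2 ratio 1.91), Angpt1 (1.35), Flt4 (1.10) and Kdr (1.01, and 0.97 with TMM scaling). Capillary-gated EC made up 65.7% and 41.9% of EC in these libraries, and venous-gated EC 2.93% and 26.2%. Within capillary-gated EC, Kdr was at 921 and 564 CPM, Flt4 at 71.9 and 56.5 and Pgf at 61.5 and 24.3. Kdr and Flt4 were within 2-fold there and Pgf was not, while Angpt1 rested on 23 and 2 UMIs. In the other gates Kdr was past 2-fold in arterial-gated EC (182 and 61.7 CPM), with intervals apart, and Flt4 in venous-gated EC (15.0 and 5.96 CPM), with overlapping intervals. In TEC, 5 genes were past 2-fold, all higher in the female library (17.7% of all genes): Kdr, Flt4, Angpt2, Tek and Tie1. Of the female UMIs, 23 of 33 for Angpt2 and 11 of 25 for Flt4 lay in 1 barcode each; without it Angpt2 would have been below the minimum of 20 UMIs and Flt4 within 2-fold. In FB, 6 were (18.7%), with Kdr, Flt1, Flt4, Tek and Tie1 higher, the intervals of Flt4 overlapping, and Angpt2 lower (log2 ratio -1.20). In mural cells 4 were (13.9%), with Kdr, Flt1, Tek and Tie1 higher, up to 5.78 for Kdr from 77 and 2 UMIs. Empty droplets of the female library were also higher for Kdr (178 and 44.8 CPM), Tek (75.5 and 49.3), Tie1 (99.4 and 58.1) and Flt4 (13.1 and 5.90), with Flt1 at 298 and 293, and the part of RNA outside cells in these differences was not tested.

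Of Foxn1Lin male over WT male, Vegfc in EC was past 2-fold with intervals apart (log2 ratio -2.0, 151 against 594 UMIs), where 10.1% of all genes were. Arterial-gated EC were 3.55% and 9.45% of EC, and within them Vegfc was at 194 and 501 CPM, with 47 of the WT UMIs of EC in 1 barcode. Tek in TEC (-1.35; 15.2% of all genes) and Flt4 (-1.66) and Angpt2 (1.08) in FB (10.9%) also passed with intervals apart. Angpt2 in TEC and Kdr in FB passed with overlapping intervals, and in mural cells 0 of the 10 genes passed, where 11.2% of all genes did. The median log2 ratio over all genes for this pair was -0.15 in TEC, -0.10 in EC and -0.14 in FB. Vegfa stayed within 2-fold between all libraries in TEC, EC, FB and mural cells. Sex, genotype, preparation and library cannot be told apart with 1 library a group.

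Other genes of the pathway were read from lists chosen by function, with EC compared with FB, where 19.7% of all genes were higher and 19.9% lower in EC. Of 4 co-receptors and partners, 4 were higher in EC, among them Cdh5, the endothelial cadherin, by 8.36 ± 0.72 (adjusted p = 7.36e-06), Ptprb, the phosphatase that restrains TIE2, by 8.13 ± 0.70 (7.38e-06) and Nrp2, a VEGF co-receptor, by 1.57 ± 0.34 (0.00317). Of 6 other ligands and processing factors, 0 were higher and 5 lower in EC, led by Svep1 (-6.11 ± 0.77, 9.15e-05), Ccbe1 (-4.97 ± 0.55, 3.62e-05), which aids VEGF-C maturation, and Adamts3 (-3.22 ± 0.35, 3.42e-05), the protease of that step. In mural cells against FB, 1 of the same 6 was higher (14.3% of all genes) and 3 lower (14.1%). The one that was higher, Angpt4, an angiopoietin, was named after its values were seen and is given as a description, at 6.75, 29.5 and 16.2 CPM in mural cells and 1.12, 0.116 and 0.592 CPM in FB. Of 8 downstream genes 6 were higher in EC and 1 lower. Nos3, the endothelial nitric oxide synthase (7.25 ± 0.50, 2.32e-06), and the ETS factors Erg (7.03 ± 0.53, 3.85e-06) and Fli1 (3.43 ± 0.44, 0.000113) led, and the adaptor Shc2 was lower (-5.10 ± 0.81, 0.000457).

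Of 6 genes of endothelial tip cells, the leading cells of a sprout, 5 were tested and 4 higher in EC, led by Pdgfb (6.86 ± 0.42, 1.63e-06), Esm1 (5.75 ± 0.47, 5.88e-06) and Dll4 (4.54 ± 0.63, 0.000187), and the 5 tested were lower in venous-gated than in capillary-gated EC, as were 12.7% of all genes. Of 6 genes of oxygen sensing, Epas1 (2.96 ± 0.28, 1.26e-05) and Egln1 (1.25 ± 0.16, 9.21e-05) were higher in EC and Egln3 (-1.23 ± 0.42, 0.0379) and Arnt (-0.71 ± 0.16, 0.00408) lower. Of 6 hypoxia targets 4 were higher, led by Ankrd37 (2.61 ± 0.45, 0.000756), Pdk1 (1.89 ± 0.25, 0.000112) and the glucose transporter Slc2a1 (1.25 ± 0.28, 0.00397), and Adm lower (-1.27 ± 0.33, 0.0105). The median log2 fold change was 4.85 for the partners, -3.18 for the other ligands, 1.92 for the downstream genes, 4.54 for the tip cell genes, -0.05 for oxygen sensing and 1.12 for the targets, against 0.04 over all genes.

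The genes whose levels ran most like each member, by Pearson's r of log2(CPM + 1) over the 14 sums of library and class among 11917 genes, are given as a description, since these sums share libraries and classes. Among the receptors, they were Ushbp1 (0.995), Adgrl4 (0.994) and Btnl9 (0.993) for Tie1, Unc45b (0.978), Rasgrp3 (0.977) and Podxl (0.972) for Kdr, Usp12 (0.981), Prkch (0.980) and Uaca (0.970) for Flt1, Notch4 (0.980), Zfp366 (0.971) and Pbld1 (0.969) for Flt4 and Fam171a1 (0.955), Clec1a (0.953) and Ablim1 (0.942) for Tek. Among the ligands, they were Synpo2 (0.979), Ift81 (0.961) and Abtb2 (0.957) for Angpt1, Apold1 (0.973), Zdhhc2 (0.971) and Kcna5 (0.957) for Angpt2, Mmp14 (0.952), Ccdc50 (0.936) and Ccl7 (0.919) for Vegfa, Tpst1 (0.935) and Slc23a2 (0.935) for Vegfc and Scn3a (0.939) and AW011738 (0.894) for Pgf.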

How the data were processed

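The authors made the deposited counts, whole-number UMI counts per gene and barcode, with Cell Ranger 7.01 (version per the submitters' processing notes) on a mouse mm10 reference (GRCm38) with transgenes added; reads in introns were counted. The deposited Cell Ranger summaries gave the percent of reads in cells. A called barcode was left out if it had at most 1000 genes and also at least 20% mitochondrial UMIs (138, 149 and 222 barcodes). No doublet caller was run beyond dropping barcodes of 2 classes. Counts were summed per library and class with at least 10 barcodes, giving 14 sums, and tested with edgeR 4.0.16 in R 4.3.3 (filterByExpr, TMM, glmQLFit, glmQLFTest) with the library as a block, Benjamini-Hochberg adjustment over all genes and a threshold of 0.05. P-values measure only the spread between these pooled libraries. DESeq2 1.42.0 was an alternative. Intervals used scipy 1.17.1, Poisson for levels and Clopper-Pearson for shares. Empty droplets were barcodes outside the called set, within a factor of 2 of their most common UMI count of at least 20. Sequences are from RefSeq and positions from GENCODE. The genes, gates and lists were chosen with earlier results of these data known. All 10 genes were named, of each other list at most 3 genes a direction with the largest change in EC against FB, and for each gene the 3 most similar genes among those with a mean of at least 5 CPM. For Vegfc and Pgf, 1 of these 3 similar genes each is not reported here.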

Additional observations from a re-analysis of the deposited data

Results flagged for a closer look

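In the ratio of EC over TEC, Pgf went in opposite directions in the female and the male libraries. Its log2 ratio of CPM was 1.04 in the female library, against -1.56 (Foxn1Lin) and -1.8 (WT) in the male libraries, and the difference was not tested. The 408, 88 and 91 Pgf UMIs of EC lay in 113, 13 and 18 barcodes, with 32, 30 and 16 in a single barcode.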

How the results depend on the processing

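Leaving out 1 library in turn, the genes called ranged over 4362 to 6689 for EC against FB, 3706 to 6308 for EC against mural cells, 2341 to 4420 for mural cells against FB, 1410 to 2623 for MEC against FB, 784 to 1028 for arterial-gated, 1908 to 2804 for venous-gated against capillary-gated EC and 944 to 1804 for the mural gates. Of the 10 genes, 4 to 7 were called for mural cells against FB, 3 to 6 for TEC against FB and 5 to 7 for venous-gated EC. Fewer sums enter these fits. Log2 fold changes that changed sign when a library was left out ranged over -1.41 to 0.46 for Pgf in EC against TEC, -0.55 to 1.27 for Kdr and -1.41 to 0.79 for Flt4 in mural cells against FB, -0.63 to 0.13 for Flt4 and -1.23 to 0.37 for Angpt2 in TEC against FB, and -0.20 to 0.25 for Pgf and -4.99 to 0.48 for Tie1 in MEC against FB. None of these passed with all libraries in the fit, and without Foxn1Lin female Pgf in EC against TEC did.

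Without the library block, 3270 genes were called for mural cells against FB, 623 for arterial-gated and 1653 for venous-gated against capillary-gated EC, with 4 of the 10 genes in the latter, and 1054 for the mural gates. For TEC against FB, 5 of the 10 genes were called with no TMM, with only the compared classes in the fit, with class gates 1 UMI lower or higher and without barcodes with a Ptprc UMI. Flt4 in TEC against FB was at 0.0909 without the 5% of barcodes with the most UMIs, Flt4 in MEC against FB at 0.38 with class gates 1 UMI lower, and Pgf in MEC against FB at 0.29 with only the compared classes in the fit. The cause was not tested. Over all results, 889 values kept direction and side of the threshold under the alternatives other than a lost library, 23 fell short of it, 21 newly passed and 3 changed sign; with a library left out, 216 kept both, 26 fell short, 6 newly passed and 8 changed sign. Of 840 CPM values under other gates and barcode filters, 778 lay inside the counting interval of the reported value. With 1 library a group, depth limits only the counting intervals, and the spread between mice was not measured.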
